A study of Mus musculus with 6 samples.

Results

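The genes described here are 10 mouse genes whose transcription is driven by the kinase ERK, several of which in turn restrain the pathway: Dusp6, Dusp4, Spry2, Spry4, Spred1, Etv4, Etv5, Fosl1, Ccnd1 and Myc. They were picked by name, with no measured value in the rule, and all 10 were found by Ensembl identifier among the 39179 genes of the count files. Messenger RNA of B16-F10 cells, a mouse melanoma line grown in culture, was sequenced in 3 libraries labelled Sirpa-KO, from cells with a knockout of Sirpa, and 3 labelled Sirpa-WT, from cells with the gene intact. Sirpa encodes SIRPα, a surface receptor for CD47 that recruits SHP phosphatases. No treatment is given for either group, the labels state neither the edit nor the number of clones, and 1 label field gives the cell line as Pmel and its source as tumor. The labels do not say that the replicates were grown separately, so the p-values below rest on a spread between libraries that may be technical.

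In the RAS-ERK pathway, receptor tyrosine kinases load RAS with GTP, RAS activates RAF kinases, RAF activates MEK, and MEK activates ERK. ERK then induces transcription factors and cell cycle genes, together with inhibitors that act back on the cascade: DUSP phosphatases remove phosphate from ERK or its relatives, and Sprouty and SPRED proteins act upstream at RAS and RAF. In melanoma the pathway is a main driver of growth, and RNA of these output genes is often read as a gauge of ERK activity.

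Depth set what could be seen. The deep library, Sirpa-KO replicate 1, held 29877270 counts, 82.6 times the mean of the 5 shallow libraries, which held 338824 to 411695. Over 6802 protein-coding genes of at least 10 CPM (counts scaled to a library total of 1e6) in the shallow libraries, Pearson's r of log2(CPM + 1) between libraries, across genes that are not independent replicates, was 0.552 to 0.634 for the deep library against each shallow one and 0.882 to 0.907 among the shallow ones. Genes annotated as pseudogenes took 0.216% of counts in the deep library, 27.2% and 27.0% in the other Sirpa-KO libraries and 29.1% to 30.2% in Sirpa-WT. Nothing in the labels says whether the deep library was prepared or aligned in another way, so a ratio of its CPM or RPKM to those of the shallow libraries compares values that may not share a denominator. For the members and the called list genes, values are therefore given with and without the deep library. Fold changes of uncalled list genes are over the shallow libraries alone unless stated otherwise. Sirpa itself had 1584, 6 and 6 counts in Sirpa-KO replicates 1 to 3 and 12, 7 and 3 in Sirpa-WT replicates 1 to 3, so its RNA does not check the genotype labels. All 8 pigment cell markers passed the count filter, and their summed level was 12712 to 15997 CPM in Sirpa-KO libraries and 16047 to 19165 CPM in Sirpa-WT libraries. Of 7 leukocyte markers, Ptprc, Cd3e and Adgre1 had no count in any shallow library, and the list summed to 4.99 to 32.6 CPM in Sirpa-KO and 9.72 to 26.2 CPM in Sirpa-WT. Fibroblast markers summed to 0 to 13.6 CPM in Sirpa-KO and 0 to 11.6 CPM in Sirpa-WT, and the 4 endothelial and 4 keratinocyte markers each to at most 2.95 CPM in any library.

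Of the 10 genes, Dusp6 was lower in each library labelled Sirpa-KO than in any labelled Sirpa-WT, as were 10.2% of the 5397 genes tested with 6 libraries. Spry4 and Etv5, on few counts, were higher in each Sirpa-KO library than in any Sirpa-WT one. So were 11.6% of 4270 genes with 5 to 20 summed shallow counts. Among the 3 members with enough counts to test, Dusp6 alone was called over the 5 shallow libraries, where 5.84% of 5510 genes were called. That call held in 10 of 15 alternatives, and with 6 libraries Dusp6 was not called (edgeR adjusted p = 0.574). Myc and Ccnd1, the other members deep enough to test, were not called. The remaining 7 had few counts in the shallow libraries: 6 of the 10 had at most 5 counts in each of them, and Dusp4 at most 10. In the deep library 8 of the 10 stood above their pooled shallow level and Dusp6 below it, and Fosl1 was counted there alone. A higher value there is common: over 6592 protein-coding genes with at least 20 shallow counts the median log2 ratio was 1.08. Against those genes the 8 members ran from percentile 62.8 (Spry4) to 99.97 (Spred1).

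RefSeq promoter windows, from 250 bases before to 50 bases after the transcript start, were on hand for 4 of the 10 members (build GRCm38.p6). The Dusp6 window is shown because Dusp6 is the member that was called, and that of Spry2 as a second feedback inhibitor in which the longer motif was found. Capitals mark GGAA or its reverse complement TTCC, the core letters bound by ETS factors such as ETV4 and ETV5, members of the set themselves.
Dusp6: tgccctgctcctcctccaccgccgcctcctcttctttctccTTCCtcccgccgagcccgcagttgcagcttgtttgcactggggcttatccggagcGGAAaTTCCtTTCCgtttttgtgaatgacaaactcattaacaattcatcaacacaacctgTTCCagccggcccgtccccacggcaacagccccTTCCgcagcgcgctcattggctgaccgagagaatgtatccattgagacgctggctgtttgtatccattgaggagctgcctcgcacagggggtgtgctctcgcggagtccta
Spry2: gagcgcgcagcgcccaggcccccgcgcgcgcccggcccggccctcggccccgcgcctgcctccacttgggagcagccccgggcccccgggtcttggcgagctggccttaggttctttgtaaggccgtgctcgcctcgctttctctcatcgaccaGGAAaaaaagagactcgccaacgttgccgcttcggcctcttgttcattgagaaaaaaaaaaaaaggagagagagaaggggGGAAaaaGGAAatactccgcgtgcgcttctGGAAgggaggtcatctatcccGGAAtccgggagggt
The Dusp6 window lies on the plus strand at chr10:99262981-99263280 and holds the core 6 times on both strands together, which 15.7% of 32851 windows of the same length match or exceed. Spry2 lies on the minus strand at chr14:105896770-105897069 and holds it 5 times, which 28.6% of windows match or exceed. At least 1 core stands in 96.0% of all windows, so its presence is the rule. The longer form CCGGAA, searched on both strands and overlapping the core, was found in 14.9% of windows and in that of Spry2 but not of Dusp6, Spred1 or Etv5. Neither the AP-1 motif TGACTCA (5.2% of windows) nor the E-box CACGTG bound by MYC (7.15%) was found in the windows of these 4 members. These are letter matches in a window and show no binding.

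**Figure D1:**
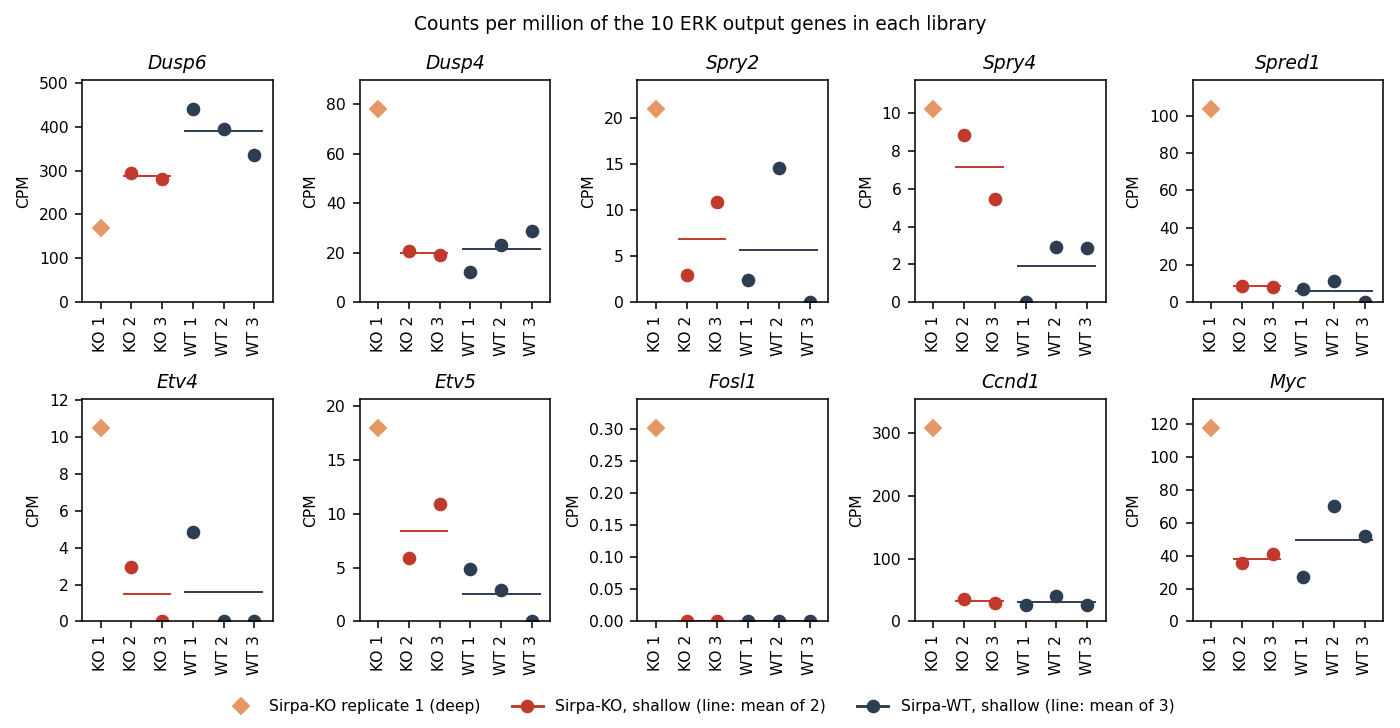
CPM (y axis, linear, starting at 0) of each of the 10 genes in each library (x axis), with the deep Sirpa-KO library as a diamond, shallow libraries as circles and lines at the group means of the shallow libraries. Dusp6 is the 1 panel in which all Sirpa-KO libraries, at 168 to 295 CPM, lie below all Sirpa-WT libraries, at 336 to 440 CPM.

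Dusp6 encodes a cytoplasmic phosphatase that removes phosphate from ERK and is itself induced by ERK. The gene (ENSMUSG00000019960) spans GRCm38 chromosome 10, 99263231 to 99267488, plus strand, with 3 merged exons of 2796 bases in all. It had 5030, 100 and 103 counts in Sirpa-KO replicates 1 to 3 and 181, 136 and 116 in Sirpa-WT replicates 1 to 3. Scaled to library totals, that is 168, 295 and 280 CPM in Sirpa-KO and 440, 396 and 336 CPM in Sirpa-WT. The groups do not overlap, and the deep library is the lowest of the 6. Among all 5397 genes tested with 6 libraries, every Sirpa-KO library lay below every Sirpa-WT library in 10.2% and above in 20.4%, and among 5510 tested in the shallow ones in 11.8% and 26.3%, so such a separation by itself is common. Over 3 libraries against 3, an exact 2-sided permutation test of log2(CPM + 1) gave p = 0.1, the smallest this design allows.

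Mean Dusp6 was 248 ± 69.3 CPM in Sirpa-KO (SD, n = 3) and 390 ± 52.2 CPM in Sirpa-WT (SD, n = 3). With 6 libraries the log2 fold change was -0.80 ± 0.36 (SE), and edgeR's quasi-likelihood test did not call it (adjusted p = 0.574); it called 0% of 5397 genes, while 344 (6.37%) had an unadjusted p under 0.05 and DESeq2 called 1. Without the deep library Dusp6 averaged 288 ± 10.6 CPM in Sirpa-KO (SD, n = 2) and 390 ± 52.2 CPM in Sirpa-WT (SD, n = 3). It fell in Sirpa-KO, by 0.57 on the log2 scale (log2 fold change -0.57 ± 0.15, SE; 95% interval -0.87 to -0.27; edgeR adjusted p = 0.00801). In that fit 5.84% of 5510 genes were called, 1.32% higher and 4.52% lower, and Dusp6 ranked 154 by p. Summed over shallow libraries it had 203 counts in Sirpa-KO and 433 in Sirpa-WT, a ratio of 0.731 with an exact 95% interval of 0.615 to 0.865. That interval, like every pooled interval here, covers counting error only.

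The call for Dusp6 held in 10 of 15 alternatives of the 5-library fit and the direction in all 15. With protein-coding genes alone in the fit, an alternative chosen after seeing the data, Dusp6 stood at -0.59 (edgeR adjusted p = 0.00663). Scaling by library size alone gave -0.43 (adjusted p = 0.0611), and this scaling shifted the median of all genes to 0.15 from 0.013. Leaving out Sirpa-KO replicate 2, Sirpa-KO replicate 3 or Sirpa-WT replicate 1 gave -0.63, -0.54 and -0.47, with adjusted p = 0.0742, 0.162 and 0.0510 (edgeR). In the first pair of these fits the lone Sirpa-KO library is assumed to vary like the Sirpa-WT ones. On the log2 scale, Dusp6 in the deep library stood at -1.06 against the pooled shallow ones, percentile 12.5 of 6592 protein-coding genes with a median of 1.08. When the trend of each shallow library on this ratio was removed, the fold change was -0.33 ± 0.15 (SE, adjusted p = 0.30), smaller by more than 1.5 times. The 10 nearest tested genes around Dusp6, over 15.2 Mb, had a median log2 fold change of -0.31, beside 0.013 for all genes tested. Of the 10, 9 were below 0, with none called. Galnt4 (-0.77) and Poc1b (-0.72), the closest on 1 side, had more negative values than Dusp6. The part of this chromosomal neighborhood in the Dusp6 value was not tested, nor was that of the pigment cell markers. Of those markers 3 of 8 were called lower in the same fit (Dct, Mitf and Pmel), beside 4.52% of all 5510 genes.

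**Figure D2:**
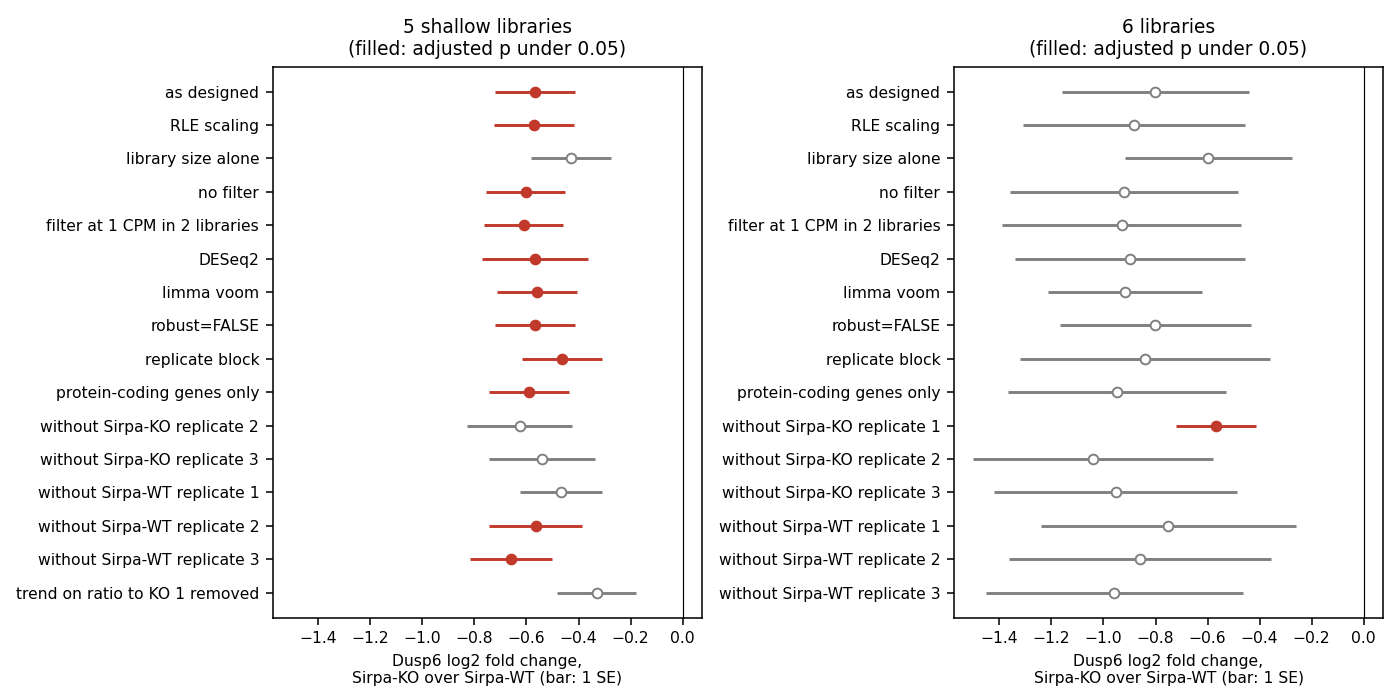
Dusp6 log2 fold change, Sirpa-KO over Sirpa-WT (x axis; bars are 1 SE), under each setting (y axis) for the 5 shallow libraries (left) and all 6 (right), filled where the adjusted p is under 0.05. All values lie below 0, from -0.66 to -0.33 on the left and from -1.04 to -0.57 on the right.

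Dusp4 encodes a nuclear phosphatase of the same family, also ERK-induced (ENSMUSG00000031530, GRCm38 chromosome 8, 34807297 to 34819894, plus strand). It had 2331, 7 and 7 counts in Sirpa-KO and 5, 8 and 10 in Sirpa-WT, or 78.0, 20.7 and 19.0 CPM in Sirpa-KO and 12.1, 23.3 and 28.9 CPM in Sirpa-WT. The shallow Sirpa-KO libraries sit inside the range of Sirpa-WT, and the deep library is above all others. Pooled over shallow libraries, Dusp4 had 14 counts in Sirpa-KO and 23 in Sirpa-WT, a ratio of 0.949 (exact 95% interval 0.451 to 1.92). A difference as large as that of Dusp6 lies inside this interval, so it was not detectable at this depth. Whether the fold change of Dusp4 differs from that of Dusp6 was not tested.

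The Sprouty and SPRED proteins are membrane-bound inhibitors of RAS and RAF activation. Spry2 (ENSMUSG00000022114, chromosome 14, 105891949 to 105896819, minus strand) had 626, 1 and 4 counts in Sirpa-KO and 1, 5 and 0 in Sirpa-WT. Spred1 (ENSMUSG00000027351, chromosome 2, 117121374 to 117182279, plus strand), which recruits the RAS inhibitor neurofibromin to the membrane, had 3095, 3 and 3 counts in Sirpa-KO and 3, 4 and 0 in Sirpa-WT. For both, the shallow libraries of the groups overlap. Their pooled ratios of Sirpa-KO to Sirpa-WT were 1.3 for Spry2 (exact 95% interval 0.314 to 5.11) and 1.34 for Spred1 (0.371 to 4.64). Leaving out 1 library at a time gave 0.542 (without Sirpa-KO replicate 3) to 5.36 (without Sirpa-WT replicate 2) for Spry2, and 1.996 without Sirpa-KO replicate 2. For Spred1 it gave 0.917 (without Sirpa-WT replicate 3) to 2.14 (without Sirpa-WT replicate 2), so neither ratio has a stable direction.

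Spry4 (ENSMUSG00000024427) had 305, 3 and 2 counts in Sirpa-KO and 0, 1 and 1 in Sirpa-WT. That is 10.2, 8.85 and 5.44 CPM in Sirpa-KO and 0, 2.91 and 2.89 CPM in Sirpa-WT, so each Sirpa-KO library is above each Sirpa-WT library. Of 4270 genes with 5 to 20 counts summed over the shallow libraries, 11.6% were separated in this direction over 6 libraries and 15.6% over the shallow ones, which makes the pattern common at this depth. The pooled ratio was 3.90 on 5 counts in Sirpa-KO and 2 in Sirpa-WT, with an exact 95% interval of 0.638 to 40.9, and without Sirpa-WT replicate 1 it was 2.44. Leaving out the other shallow libraries in turn gave 2.99 to 5.36. In the unfiltered edgeR fits Spry4 had a log2 fold change with 6 libraries of 1.77 ± 1.35 (SE), and with 5 libraries of 1.64 ± 1.23; the adjusted p was 0.938 and 0.795.

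ETV4 and ETV5 are ETS transcription factors of the PEA3 group, induced by ERK and used by it to drive further genes. Etv4 (ENSMUSG00000017724, chromosome 11, 101769742 to 101785371, minus strand) had 313, 1 and 0 counts in Sirpa-KO and 2, 0 and 0 in Sirpa-WT, too few in the shallow libraries to compare. Etv5 (ENSMUSG00000013089, chromosome 16, 22381309 to 22439719, minus strand) had 536, 2 and 4 counts in Sirpa-KO and 2, 1 and 0 in Sirpa-WT. In CPM this is 17.9, 5.90 and 10.9 in Sirpa-KO and 4.86, 2.91 and 0 in Sirpa-WT, with every Sirpa-KO library above every Sirpa-WT one. Of the 4270 genes with 5 to 20 summed shallow counts, 11.6% were separated in this direction over 6 libraries. Over the shallow ones it was 15.6%, so the pattern is common at this depth. The pooled Etv5 ratio was 3.12 on 6 counts in Sirpa-KO and 3 in Sirpa-WT (exact 95% interval 0.666 to 19.3). It was 5.85 without Sirpa-WT replicate 1, and 2.14 to 3.99 with each other shallow library left out. The unfiltered edgeR fits put Etv5 at 1.75 ± 1.18 (log2 fold change and its SE, adjusted p = 0.938) with 6 libraries and at 1.38 ± 1.06 (adjusted p = 0.795) with 5. Of the 25-base words in annotated Etv5 transcripts, 32.2% recur in transcripts of other genes, mostly the predicted gene Gm4798, so its counts are uncertain. Spry4 and Etv5 were singled out after their values were seen.

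FOSL1 (FRA-1) is a subunit of the AP-1 transcription factor that accumulates when ERK is active for long. Fosl1 (ENSMUSG00000024912, chromosome 19, 5447703 to 5455945, plus strand) had 9, 0 and 0 counts in Sirpa-KO and 0, 0 and 0 in Sirpa-WT. Of its 25-base words, 55.1% recur in transcripts of other genes, most often Ccdc85b, which makes its few counts uncertain. Its level in the deep library was 0.301 CPM (exact 95% interval 0.138 to 0.572). With 3 counts taken as the upper limit for a count of 0, up to 7.29 to 8.85 CPM is allowed in a single shallow library, and 1.66 CPM over the 5 pooled. This limit is not the exact interval used for the deep library.

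**Figure D3:**
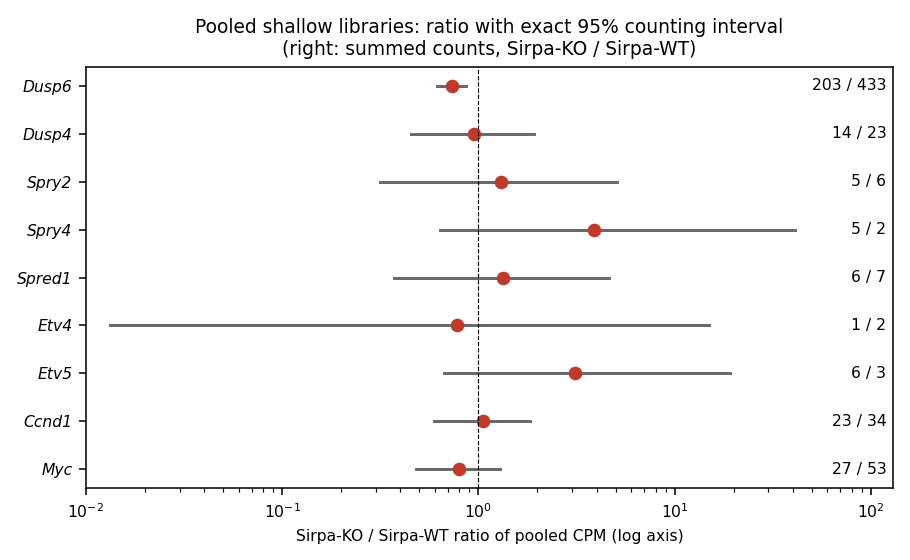
Ratio of pooled CPM, Sirpa-KO over Sirpa-WT, in the shallow libraries for 9 genes (x axis, log scale), with exact 95% intervals for counting error and the summed counts at the right. The interval lies apart from 1 for Dusp6, at 0.615 to 0.865, and spans 1 for the other 8 genes.

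Cyclin D1, encoded by Ccnd1, binds CDK4 and CDK6 and carries ERK signals into the cell cycle. Ccnd1 (ENSMUSG00000070348, chromosome 7, 144929931 to 144939869, minus strand) had 9163, 12 and 11 counts in Sirpa-KO and 11, 14 and 9 in Sirpa-WT. That is 307, 35.4 and 29.9 CPM in Sirpa-KO and 26.7, 40.7 and 26.0 CPM in Sirpa-WT. The shallow libraries overlap, and the deep library is far above all of them. With 6 libraries the log2 fold change was 1.83 ± 1.0 (SE, edgeR adjusted p = 0.574), a value set by the deep library, since without it the fold change was -0.04 ± 0.41 (SE, adjusted p = 0.968; 95% interval -0.84 to 0.75). The pooled ratio was 1.05 on 23 counts in Sirpa-KO and 34 in Sirpa-WT (exact 95% interval 0.593 to 1.84), and 0.958 with library sizes scaled by TMM. Of the exon length of Ccnd1, 818 bases (21.3%) overlap exons of LTO1 on the other strand, and counting without strand cannot tell reads of the overlap apart.

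Myc encodes the growth-promoting transcription factor MYC, whose RNA and protein both respond to ERK. The gene (ENSMUSG00000022346, chromosome 15, 61985391 to 61990374, plus strand) had 3500, 12 and 15 counts in Sirpa-KO and 11, 24 and 18 in Sirpa-WT. In CPM these are 117, 35.4 and 40.8 in Sirpa-KO and 26.7, 69.8 and 52.1 in Sirpa-WT, so the shallow Sirpa-KO values fall between the lowest and the middle Sirpa-WT value. The log2 fold change was 0.24 ± 0.61 (SE, edgeR adjusted p = 0.850) with 6 libraries and -0.45 ± 0.35 (adjusted p = 0.489; 95% interval -1.13 to 0.23) without the deep one. None of the 15 alternatives of the 6-library fit called it, and none of the 15 without the deep library, where DESeq2 gave no adjusted p. The summed 27 counts in Sirpa-KO and 53 in Sirpa-WT gave a ratio of 0.794 (exact 95% interval 0.480 to 1.28).

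Levels were compared between the genes per exon length, as CPM per kilobase (RPKM). In the shallow libraries pooled, Dusp6 was first at 126 RPKM (exact 95% interval 116 to 136) and Myc second at 16.3 (12.9 to 20.3). Ccnd1 at 8.22 and Dusp4 at 7.47 RPKM followed, and their intervals overlap (6.23 to 10.7 and 5.26 to 10.3). Spry2 stood at 2.92 RPKM, and Etv5, Spred1, Spry4 and Etv4 at 1.21 to 0.535 RPKM, and among these 5 no gene was apart from the next in order by its interval. Between libraries, Dusp6 RPKM ran from 100 to 106 in the shallow Sirpa-KO libraries and from 120 to 157 in Sirpa-WT.

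The order differed in the deep library. Ccnd1 was first there at 79.97 RPKM (78.3 to 81.6), followed by Dusp6 at 60.2 and Myc at 43.1, then Dusp4 at 28.5 and Spred1 at 15.3. Relative to the pooled shallow libraries, CPM in the deep library was 9.73 times as high for Ccnd1 (exact 95% interval 7.50 to 12.9) and 14.4 times as high for Spred1 (8.41 to 27.1). These ratios stand at percentiles 99.6 and 99.97 among the protein-coding genes with at least 20 shallow counts, although Spred1 itself has only 13. For Dusp6 the ratio was 0.478 (0.440 to 0.520). Since this library is labelled Sirpa-KO and differs from both other Sirpa-KO libraries, genotype cannot be told apart here from whatever else sets it apart, its share of pseudogene counts included. The 10 genes together summed to 834, 416 and 405 CPM in Sirpa-KO replicates 1 to 3 and 525, 561 and 446 CPM in Sirpa-WT. Dusp6 alone made up 20.2%, 70.9% and 69.1% of those sums in Sirpa-KO and 83.8%, 70.5% and 75.3% in Sirpa-WT.

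**Figure D4:**
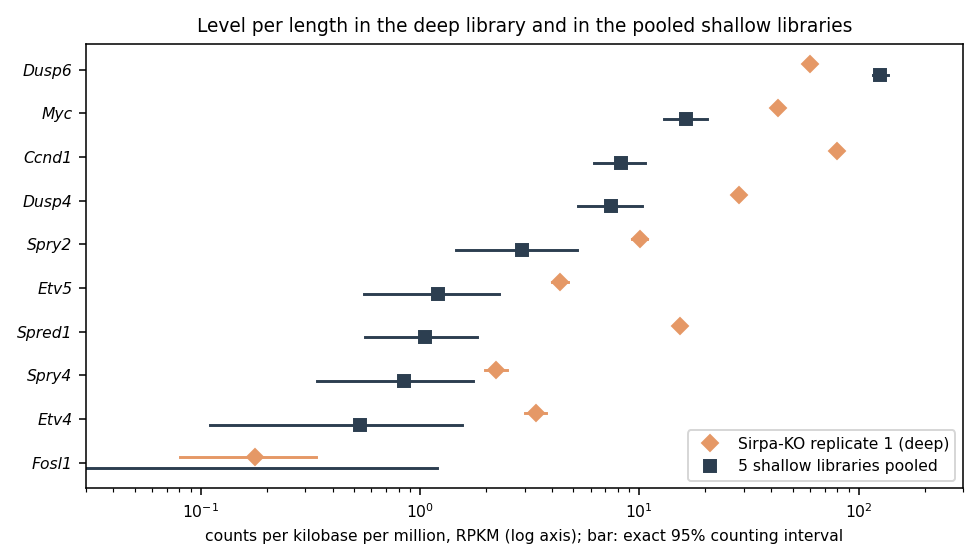
Level per length in RPKM (x axis, log scale; bars are exact 95% counting intervals) of each gene in the deep library (diamonds) and in the 5 shallow libraries pooled (squares; Fosl1 had no count there). Dusp6 is lower in the deep library, 60.2 against 126 RPKM, and the other genes with a shallow count are higher in it.

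Around the members, the pathway itself showed few calls. Of 98 other pathway genes in 6 lists found in the files, 37 could be tested in the shallow libraries. There 1 was called higher and 1 lower, 5.41% of those tested, beside 5.84% of all genes. Their median log2 fold change was -0.04, beside 0.01 for all genes. With 6 libraries none was called, and the list medians ran from 0.21 to 0.55, beside 0.11 for all genes.

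No gene of the RAF-MEK-ERK cascade passed, of 13 tested out of 17 (median log2 fold change -0.04 over the shallow libraries). The adaptor gene Grb2 (-0.35) and Map2k2, the gene of MEK2 (-0.27), did not pass. Ptpn11, the gene of the phosphatase SHP-2 that activates RAS signaling, stood at 0.66 ± 0.23 (SE, edgeR adjusted p = 0.0522) and passed with library size alone only. Among scaffolds and adaptors 0 of 4 tested passed, with Iqgap1, a scaffold of the cascade, at 0.05. None of the 3 tested genes that switch RAS off passed either, Nf1, the gene of neurofibromin, standing at 0.49 ± 0.31 (SE, adjusted p = 0.372).

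Other ERK output genes were mostly too low to test, as were most members: 6 of 30 in the files passed the filter. Hmga2, which encodes a chromatin protein, rose over the shallow libraries. It had 200, 73.8 and 95.2 CPM in Sirpa-KO and 48.6, 46.5 and 23.2 CPM in Sirpa-WT. Hmga2 was thus higher in each Sirpa-KO library than in any Sirpa-WT one, as were 20.4% of the genes tested with 6 libraries. Its log2 fold change was 0.96 ± 0.30 (SE, edgeR adjusted p = 0.0247), and with the deep library included 1.48 ± 0.51 (SE, adjusted p = 0.574). The call was lost without the filter (adjusted p = 0.0970), with the filter at 1 CPM (0.0814), with the trend on the deep library removed (0.208), and without Sirpa-KO replicate 2 (0.0751), Sirpa-KO replicate 3 (0.395) or Sirpa-WT replicate 3 (0.152). Ier3 (-0.59 ± 0.29, adjusted p = 0.227), an immediate early gene, and Jun (-0.14), an AP-1 subunit gene, did not pass.

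Of 4 tested receptor tyrosine kinase genes, Met fell over the shallow libraries and the rest did not pass (median log2 fold change -0.54). Met encodes the receptor for hepatocyte growth factor. It had 315, 79.7 and 51.7 CPM in Sirpa-KO and 117, 137 and 92.6 CPM in Sirpa-WT: the shallow Sirpa-KO libraries are below all Sirpa-WT ones, and the deep one is above them. Of all genes tested in the shallow libraries, 11.8% were separated in that direction. The log2 fold change without the deep library was -0.94 ± 0.26 (SE, edgeR adjusted p = 0.00859), and -1.17 (adjusted p = 6.83e-04) with the trend on the deep library removed. With the deep library included Met stood at 0.20 ± 0.68 (SE, adjusted p = 0.873). It was not called without Sirpa-KO replicate 3 (-0.66, adjusted p = 0.341) or Sirpa-WT replicate 2 (-0.82, adjusted p = 0.0816). DESeq2 gave neither Met nor Hmga2 an adjusted p. Erbb3 (-0.03) and Mertk (-0.15), receptor genes of the melanocyte lineage and of dying-cell uptake, did not pass.

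None of the 7 tested partners of cyclin D and MYC passed in the shallow libraries. Cdk4, the kinase bound by cyclin D1, differed by -0.06 ± 0.19 in log2 (SE; edgeR adjusted p = 0.899), and Ccnd2, a sister gene of Ccnd1, by -0.23 ± 0.20 (adjusted p = 0.569). Cdkn1a, the gene of the CDK inhibitor p21, stood at 206, 162 and 196 CPM in Sirpa-KO and 119 to 129 CPM in Sirpa-WT. Of all genes tested, 20.4% with 6 libraries and 26.3% in the shallow ones were separated in that direction. Its log2 fold change was 0.43 ± 0.20 (SE, edgeR adjusted p = 0.193) over the shallow libraries and 0.47 ± 0.25 (SE, adjusted p = 0.574) with 6. Cdkn2a, which encodes the CDK4 inhibitor p16, had no count in any library, which in the deep library allows up to 0.10 CPM by the same limit of 3 counts.

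**Figure D5:**
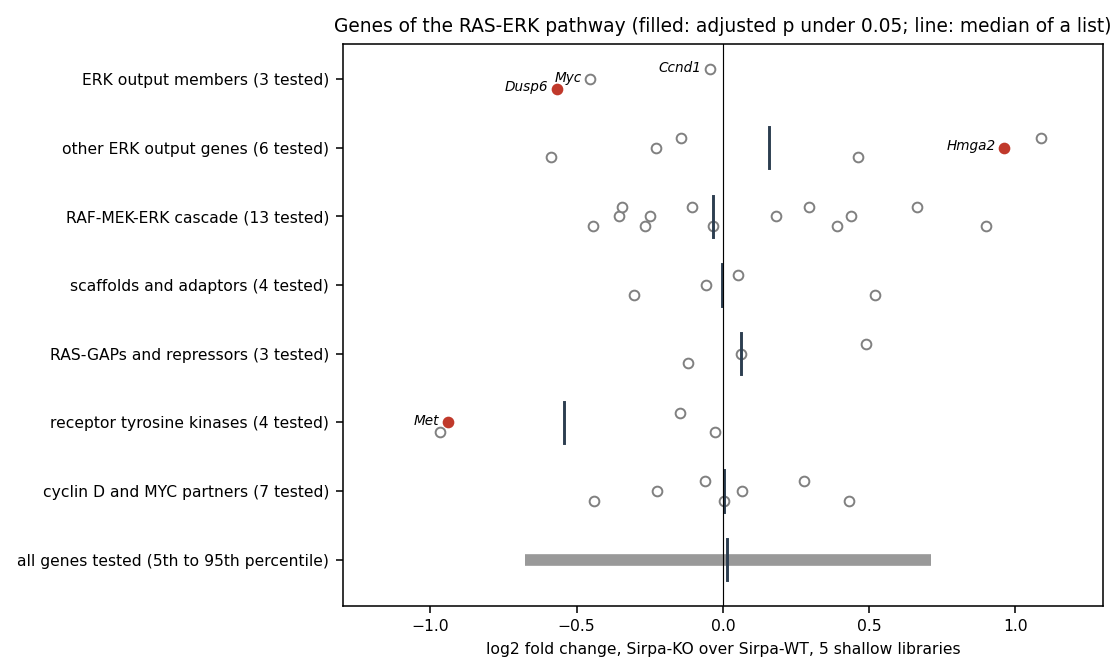
Log2 fold change, Sirpa-KO over Sirpa-WT, in the 5 shallow libraries (x axis) for the tested genes of each list (rows; vertical lines are list medians), with the 5th to 95th percentile of all tested genes as a bar. Filled points passed an adjusted p of 0.05: Dusp6 at -0.57, Hmga2 at 0.96 and Met at -0.94.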

How the data were processed

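Gene expression was measured in 3 Sirpa-KO and 3 Sirpa-WT libraries, grouped and numbered by sample title. Per the file headers, the deposited values are raw read-pair counts, not normalized, which the authors obtained with featureCounts 1.5.1, summing exons by gene (GRCm38, Ensembl release 75) with no strand option; the submitters' processing notes name STAR 2.6.0. Symbols came from GENCODE mouse release 21 by identifier (37607 of 39179 genes).

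The members and the 6 pathway lists were chosen with earlier results of these data known. Genes were filtered with filterByExpr (minimum count 10), scaled by TMM, then compared 2-sided by the quasi-likelihood F-test of edgeR (robust=TRUE); p-values were Benjamini-Hochberg adjusted across every tested gene, with 0.05 as threshold, over 6 libraries and over 5 without Sirpa-KO replicate 1. SEs are the fold change over the root of F. Members under the filter took values from a fit without it. Counts of the members were also pooled over shallow libraries, and pooled ratios used library totals without TMM scaling. For shallow replicate pairs, chi-square over its degrees of freedom was 1.15 to 1.45, above sampling noise. Named genes were the members, called list genes and up to 3 abundant tested genes per list. Some list genes are not reported here. Fits were run on counts simulated from the mean profile of the shallow libraries. The deep library was given that same profile, so the simulation does not check the 6-library fit. DESeq2 1.42.0, limma 3.58.1 and edgeR 4.0.16 ran under R 4.3.3. Alternatives were RLE scaling, other filters, no composition scaling (library size alone), limma voom, DESeq2, robust=FALSE, the replicate block, a lowess trend (span 0.3) on the ratio of Sirpa-KO replicate 1 to the others, and leaving out each library.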

Additional observations from a re-analysis of the deposited data

How the results depend on the processing

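With 6 libraries edgeR called 0 genes, with 344 under 0.05 before adjustment; DESeq2 called 1, limma voom 1283, and fits that left out a library 0 to 322. Over the shallow libraries the 322 calls became 132 with DESeq2, 119 with the trend on Sirpa-KO replicate 1 removed and 196 in protein-coding genes only, a setting chosen after seeing the data in which fewer genes were tested; leaving out each library gave 125 to 351. Of these calls 77.3% were lower in Sirpa-KO, and 31.4% of 407 with library size alone. The 2 pathway list genes called became 1 without a filter, 1 with the filter at 1 CPM, 0 with DESeq2, 1 with the trend removed, and ranged over 0 to 2 when single libraries were dropped. The log2 fold change of Dusp6 over 5 libraries was -0.43 with library size alone and -0.33 with the trend removed, and ran from -0.66 to -0.47 with each library left out; over 6 it ran from -1.04 to -0.57. The pooled ratio of Dusp6 ran from 0.685 to 0.786 with each shallow library left out, and was 0.664 with library sizes scaled by TMM. The cause of these differences was not tested. Between groups, deviations from the group mean correlated at 0.02, -0.04 and 0.06 within replicate numbers 1 to 3. This cannot exclude that the numbers pair the samples, since the Sirpa-KO mean includes the deep library. With the replicate block 316 genes were called over 5 libraries and 0 over 6, and Dusp6 stood at -0.46 over 5 (edgeR adjusted p = 0.0460). Depth limits 7 of the 10 genes to pooled counts.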
